A study of Mus musculus with 8 samples.

Results

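The genes of the translation initiation factors were compared between hepatocytes of hCNR1+/+ and hCNR1-/- mice. Members were all mouse genes measured on the arrays whose symbol begins with Eif and a digit, without the eIF2 kinases (Eif2ak), the eIF4E-binding proteins (Eif4ebp) and the Y-linked Eif2s3y. The rule, which used no measured value, found 48 genes among the 21368 named genes of the array, on 70 probes. Of these, 46 were bright enough to be tested, among 11072 tested genes in all, and 43 of the 46 were well above background on every array. Eif4e1b, a relative of the cap-binding protein, and Eif5b, a factor that joins the ribosomal subunits, were well above background on 0 of 8 arrays and have no value here.

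Isolated hepatocytes came from male mice of 12 to 14 weeks on a standard diet, 4 per genotype, with 1 array for each mouse. The hCNR1-/- animals (strain CNRO Alb-Cre) lacked the cannabinoid receptor gene Cnr1 in hepatocytes, because floxed Cnr1 alleles were recombined by Cre under the albumin promoter, a promoter of hepatocytes. The hCNR1+/+ animals (strain CNRO) were littermates whose strain label carries no Cre. No further treatment is given for these mice. The only Cnr1 probe was well above background on 0 of 8 arrays, so the genotypes rest on the labels.

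Initiation factors bring the ribosome to the start codon of an mRNA. eIF4E binds the cap, eIF4G and the helicase eIF4A open the leader, eIF3 holds the small subunit, and eIF2, recharged by eIF2B, delivers the initiator tRNA, after which eIF5 and eIF5B let the large subunit join. In hepatocytes, which secrete most plasma proteins, this step is regulated by nutrients and by stress through eIF2 and eIF4E.

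Levels are given as log2 signal relative to the 75th percentile of the same array, so a level of 0 equals that percentile and a difference of 1 is a 2-fold change. All arrays lay on 1 slide, with each genotype in a row of its own, so an effect of the row and one of the genotype cannot be told apart. The 75th percentile of the signal ran from 29.3 to 139 and the share of spots well above background from 28.6% to 42.3%. Both were lowest in hCNR1-/- replicate 4, whose mean correlation with the other hCNR1-/- arrays was 0.942 against 0.972 to 0.975 for the other 3. The main counts are therefore also given without this array. Among the hCNR1+/+ arrays the percentile and the share were also lowest in replicate 4, of the same column, at 62.0 and 35.0%. The 13 hepatocyte markers were all tested, 6 above 0 and 7 below, with a median log2 fold change of -0.01 and a range from -1.81 in Pck1 to 1.63 in Apob. Apob rose (adjusted p = 0.0477, limma), and Pck1 and Ass1 lay lower without overlap. All 10 tested genes of 13 Kupffer cell and macrophage markers were below 0, with a median of -0.98. The scavenger receptor Marco and the protease Ctss, 2 of the 10, fell at the adjusted threshold. Ctss, like Vsig4, was well above background on only 2 of 4 hCNR1-/- arrays, so its fold change rests partly on dim values. The log2 of the summed signal of the 10 genes was 6.42 to 7.40 in hCNR1+/+ and 5.69 to 6.14 in hCNR1-/-. Timd4 and Cd163 were well above background on 0 arrays and Adgre1 on 3 of 8. All 3 tested lymphocyte markers of 9 (Cd3e, Cd4 and Nkg7) were above 0, with a median of 0.61, and none passed the adjusted test. In 2 of them every hCNR1-/- array lay above every hCNR1+/+ array, as in 12.7% of all tested genes. The log2 of the summed signal of the 3 genes was 6.39 to 6.70 in hCNR1+/+ and 6.77 to 8.01 in hCNR1-/-. Ptprc, Cd3d, Cd79a and Ms4a1 were well above background on 0 arrays. The median was -0.18 over 7 of 9 endothelial, -0.63 over 2 of 9 stellate cell, -0.05 over 2 of 7 neutrophil and -0.15 over 2 of 6 cholangiocyte markers, none past the adjusted test. The part of these cells in the results below was not tested, and in whole preparations fewer cells of a type and less RNA per cell cannot be told apart.

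Most initiation factor genes lay above 0 in hCNR1-/- hepatocytes by modest amounts, and only 2 subunit genes of eIF3 passed the adjusted test. The log2 fold change, hCNR1-/- minus hCNR1+/+, was above 0 in 35 of the 46 tested genes (76.1%), against 56.6% of all tested genes. That count was 16 without scaling between arrays, 30 with quantile normalization, 31 with the percentile over bright probes and 40 without hCNR1-/- replicate 4. Its median was 0.42, against 0.08 over all tested genes, and it ran from -1.28 in Eif3e to 1.70 in Eif3j2. At a Benjamini-Hochberg adjusted p below 0.05 (limma, over all tested genes), 2 members were higher (4.35%), Eif3j2 and Eif3a, a share near the 2.94% of all genes. Without hCNR1+/+ replicate 2, hCNR1+/+ replicate 3 or hCNR1-/- replicate 3 the count was 0 (all genes 85, 13 and 24, against 325 over all arrays). Without hCNR1-/- replicate 1 or 2 it was 1 (all genes 44 and 86), and without hCNR1-/- replicate 4 it was 12 (all genes 1121). None was lower, against 1.3% of all genes, and 3 members were lower at an unadjusted p below 0.05 in limma. At a fold change above 2 with an unadjusted p below 0.05, 5 were higher (10.9%, against 4.78% of all genes) and 1 was lower (2.17%, against 3.75%). Without hCNR1+/+ replicate 4, 3 members were higher (464 of all genes, against 529 over all arrays). Without hCNR1-/- replicate 4, 6 were higher and 0 lower (579 and 329 of all genes, against 529 and 415). In 13 members (28.3%, against 12.7% of all genes) every hCNR1-/- array lay above every hCNR1+/+ array, and in 1 member, Eif2b3, every hCNR1-/- array lay below (2.17%, against 5.04%). An unadjusted p below 0.05 was reached by 16 members on the higher side (34.8%, against 14.7%) and by 3 on the lower side (6.52%, against 6.92%). Without any scaling between arrays the median of the members was -0.14 and that of all genes -0.47, and without both scaling and hCNR1-/- replicate 4 they were 0.41 and 0.05.

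**Figure D1:**
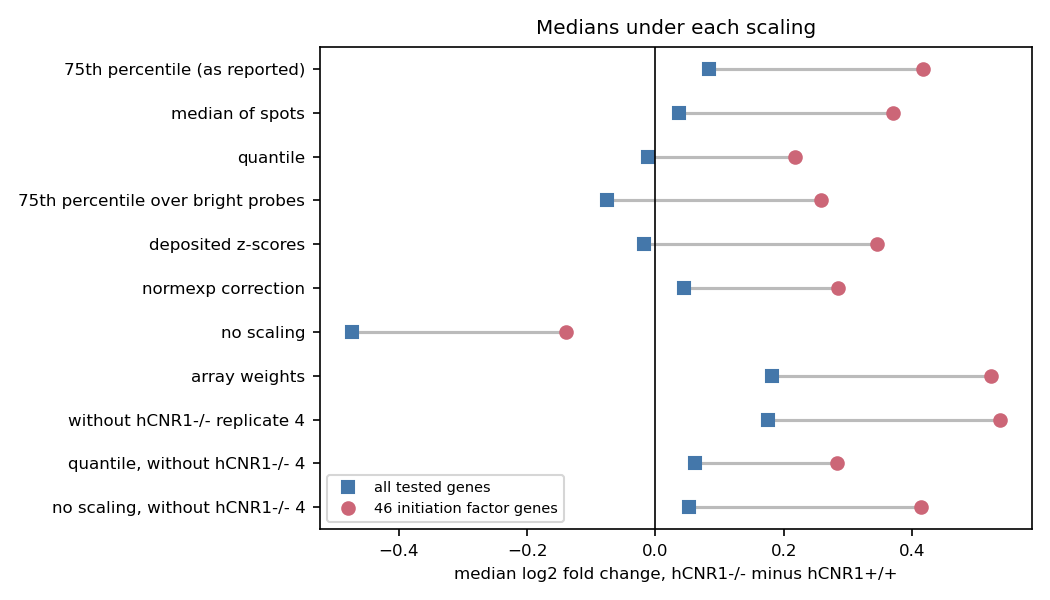
Median log2 fold change (x axis) of the 46 members (circles) and of all tested genes (squares) under each way of scaling or weighting the arrays (rows). The member median is the higher of the pair in every row, and it falls below 0 only without scaling, at -0.14 against -0.47.

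**Figure D2:**
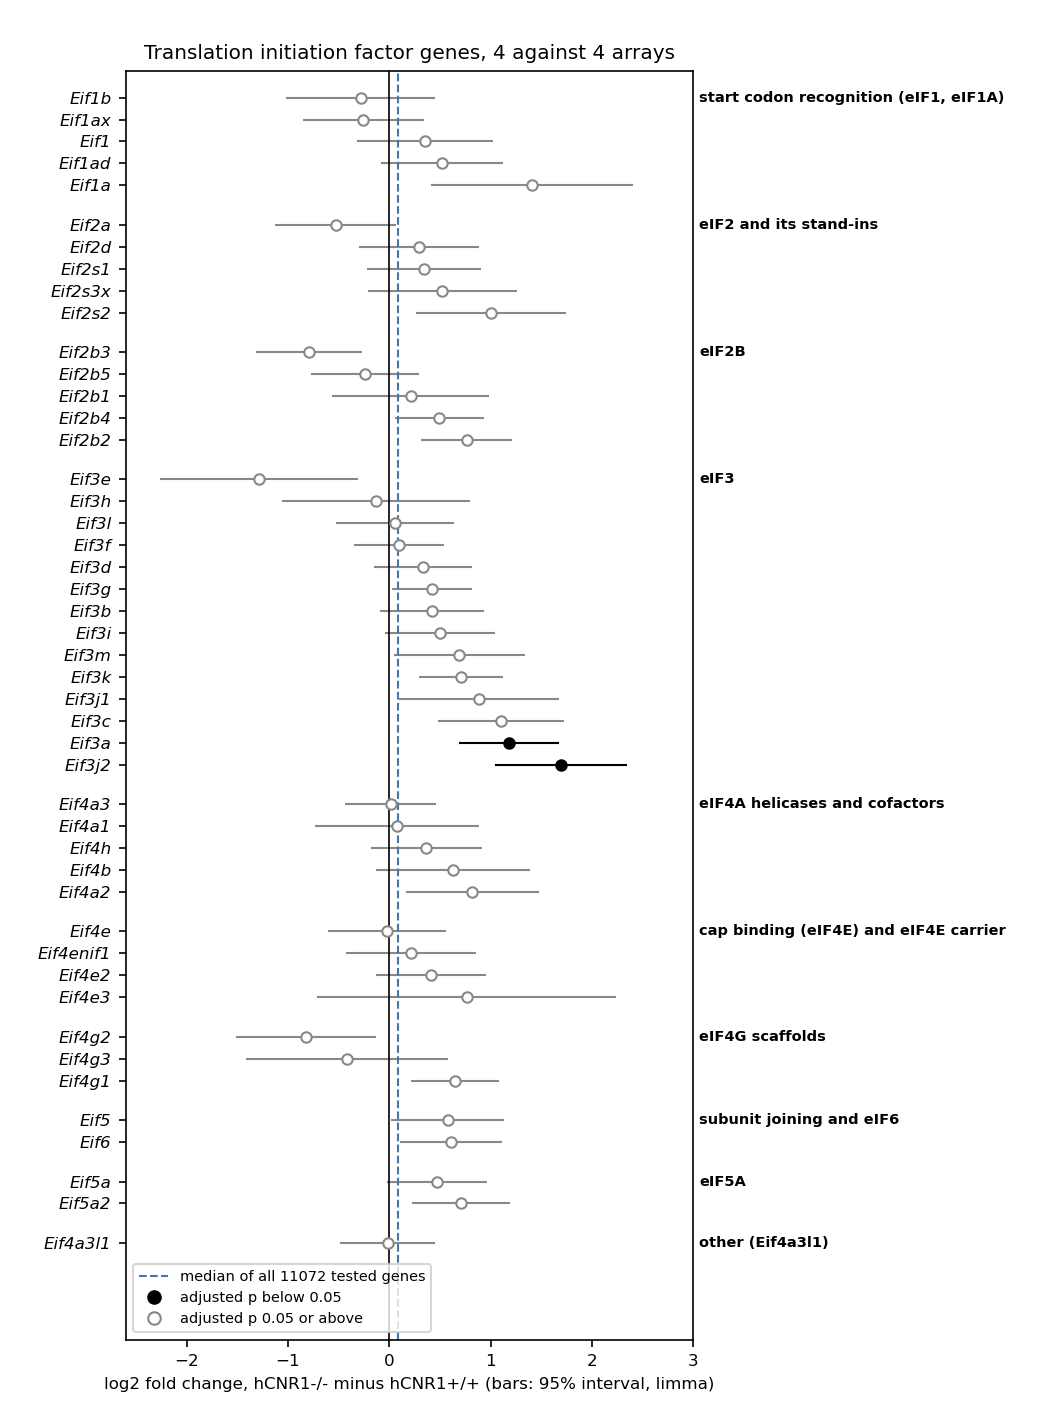
Log2 fold change (x axis, hCNR1-/- minus hCNR1+/+, 4 against 4 arrays) of the 46 tested initiation factor genes, ordered by role, with limma's 95% interval as bars. Filled points mark the 2 genes with an adjusted p below 0.05, and the dashed line marks the median of all tested genes at 0.08, with 35 of 46 points right of 0.

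To show what the members share apart from their function, their promoters were read from RefSeq (GRCm38.p6), from 250 bases before to 50 after each annotated start. A promoter was held for 38 of the 48 genes, and those of Eif3j2, Eif1a, Eif3e and Eif2b3 are not among them. The E-box CACGTG, a palindrome bound by Myc and related factors, was in 10 of 38 member promoters (26.3%), against 8.09% of 27025 genes and 12.1% of the 8892 tested genes with a promoter. The ETS-type motif CCGGAAG, on either strand, was in 14 of 38 (36.8%), against 9.93% and 20.0%. AAGATGGCG, a core of the YY1 motif, was in 1 of 38 (2.63%, against 1.64% of all and 3.63% of tested genes). TGACGTCA, the full cAMP response element, was in 0 of 38, against 2.03% and 3.62%. A C at the start base followed by 4 C or T bases, the form of a terminal oligopyrimidine tract, was found in 2 of 38 (5.26%, against 3.01%). The windows below hold the E-box (in capitals) in 7 of the 10 genes, read 5′ to 3′ on the strand of the gene. They lie at chr19:60790654-60790683 (minus strand) for Eif3a, chr7:28981915-28981944 (minus) for Eif3k, chr16:20672661-20672690 (plus) for Eif4g1, chr3:28781148-28781177 (plus) for Eif5a2, chr11:69921443-69921472 (minus) for Eif5a, chr3:138527192-138527221 (plus) for Eif4e and chr11:69672595-69672624 (minus) for Eif4a1.
Eif3a: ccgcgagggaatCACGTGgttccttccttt
Eif3k: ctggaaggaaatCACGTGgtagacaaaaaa
Eif4g1: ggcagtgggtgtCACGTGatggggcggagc
Eif5a2: cagggcgagcttCACGTGacggggcgggac
Eif5a: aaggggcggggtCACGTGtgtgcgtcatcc
Eif4e: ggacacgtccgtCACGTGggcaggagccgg
Eif4a1: cgatcgcctccgCACGTGtaaaggtgctgg

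In Eif3k, Eif4g1 and Eif5a2 the E-box of these windows begins 44, 54 and 117 bases before the annotated start, in Eif4e and Eif4a1 64 and 189 bases before it, and in Eif3a after the start, in transcribed sequence. The window of Eif5a lies before each of 2 annotated starts, by 74 and 185 bases. Eif4g1, Eif5a2, Eif5a and Eif4e each hold another copy. The log2 fold changes of these genes ran from -0.02 in Eif4e and 0.07 in Eif4a1 to 1.18 in Eif3a. The next windows hold the ETS-type motif in 3 of its 14 genes, in capitals and in the direction of the gene. They lie at chr7:126566417-126566445 (minus strand) for Eif3c, which holds another copy nearby, chr12:85219486-85219514 (plus) for Eif2b2 and chr9:20898617-20898645 (minus) for Eif3g.
Eif3c: attctttggtgCTTCCGGgaagtgacgcc
Eif2b2: cctctctcggcCCGGAAGtgaaacagtgc
Eif3g: cggccgcggcaCCGGAAGcctcttctact

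Members with and without a motif had similar fold changes. The median log2 fold change was 0.42 in the 10 tested members with the E-box, from -0.28 to 1.18, and 0.41 in the 27 without it. With the ETS-type motif it was 0.45 in 14 members, 12 of them above 0, and without it 0.35 in 23. A motif match describes these letters only, and no binding was measured.

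eIF3, the largest initiation factor and the scaffold of the small-subunit complex, held both genes called at the adjusted threshold. Of its 14 subunit genes, all tested, 12 lay above 0, with a median of 0.46. Eif3j2, a gene for the loosely bound j subunit that helps eIF3 bind the small subunit, had levels of 2.20, 1.64, 1.88 and 1.88 in hCNR1+/+ and 3.27, 3.04, 3.79 and 4.29 in hCNR1-/- arrays, here and below in the order of replicates 1 to 4. The groups were far apart, and the lowest hCNR1-/- array stood above the highest hCNR1+/+ array. Eif3j2 rose by 1.70 on the log2 scale (standard error 0.29, adjusted p = 0.0203 from limma, exact two-sided permutation p = 0.0286, the smallest that 4 against 4 arrays allow). Its paralog Eif3j1 differed by 0.89 in the same direction (adjusted p = 0.184, limma), with 1 hCNR1-/- array at 1.54, below the highest hCNR1+/+ array at 1.60. The probe sequences were not at hand, so signal shared between the near-identical copies Eif3j1 and Eif3j2 is uncertain.

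Eif3a, the large core subunit on which the complex is built, had levels of 1.38, 1.09, 0.93 and 1.11 in the hCNR1+/+ arrays and 1.93, 2.19, 2.54 and 2.57 in the hCNR1-/- arrays. No array of either genotype lay within the range of the other. Eif3a rose by 1.18 (standard error 0.22, adjusted p = 0.0263 from limma, exact permutation p = 0.0286). Both calls were lost on leaving out any 1 of several arrays. In those omissions the higher calls over all genes also fell, from 325 to between 13 and 130. For Eif3j2 the adjusted p was 0.0566 without hCNR1+/+ replicate 2, 0.0807 without hCNR1+/+ replicate 3, 0.0512 without hCNR1-/- replicate 1 and 0.0715 without hCNR1-/- replicate 3. For Eif3a it was 0.0682 and 0.105 without hCNR1+/+ replicates 2 and 3, 0.0522 without hCNR1+/+ replicate 4, and 0.0627 and 0.0821 without hCNR1-/- replicates 2 and 3. The fold changes themselves moved little, from 1.47 to 1.88 for Eif3j2 and from 1.09 to 1.31 for Eif3a when 1 array was left out. Both stayed above 0 under every scaling, down to 1.14 and 0.62 without any. Other scalings also ended calls. For Eif3a the adjusted p (limma) was 0.0550 with quantile normalization, 0.0594 with the percentile over bright probes and 0.128 with normexp background correction, where Eif3j2 kept its call at 0.0416 to 0.0477. For Eif3j2 and Eif3a it was 0.103 and 0.351 with the median subtracted, 0.0876 and 0.0975 with the deposited z-scores, and 0.795 and 0.830 without scaling.

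Eif3c, another core subunit, missed the adjusted threshold narrowly. Its levels were 6.46, 6.24, 6.29 and 7.30 in hCNR1+/+ and 7.89, 7.80, 7.68 and 7.34 in hCNR1-/- arrays. The genotypes did not overlap, but the replicate 4 arrays of both stood close to each other. The difference was 1.11 (standard error 0.28, adjusted p = 0.0550, limma), with 0.95 on its other probe, and it passed at adjusted p = 0.0283 without hCNR1+/+ replicate 4 and 0.0282 without hCNR1-/- replicate 4. Eif3k, a small peripheral subunit, had levels of 7.08, 7.08, 7.21 and 7.14 in hCNR1+/+ and 7.77, 8.10, 7.73 and 7.74 in hCNR1-/- arrays. Both genotypes were narrow in this gene and did not overlap. It differed by 0.71 (adjusted p = 0.0631, limma), and its 3 probes gave 0.71 to 0.74. Eif3g, an RNA-binding subunit, differed by 0.42 without overlap (adjusted p = 0.200, limma) and Eif3m by 0.69 with overlap (adjusted p = 0.202).

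Eif3e, a subunit of the outer arm of eIF3, lay in the opposite direction. It read 1.94, 1.56, 0.58 and 0.33 in hCNR1+/+ arrays and -0.08, 0.12, 0.37 and -1.14 in hCNR1-/- arrays, where 3 of 4 arrays were well above background. Only the hCNR1-/- array at 0.37 reached into the hCNR1+/+ range, which was itself wide. The difference was -1.28 (standard error 0.44, adjusted p = 0.129 from limma, exact permutation p = 0.0571), and -0.96 without hCNR1-/- replicate 4, which is below a 2-fold change. The remaining subunit genes (Eif3b, Eif3d, Eif3f, Eif3h, Eif3i and Eif3l) ranged from -0.13 in Eif3h to 0.50 in Eif3i.

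**Figure D3:**
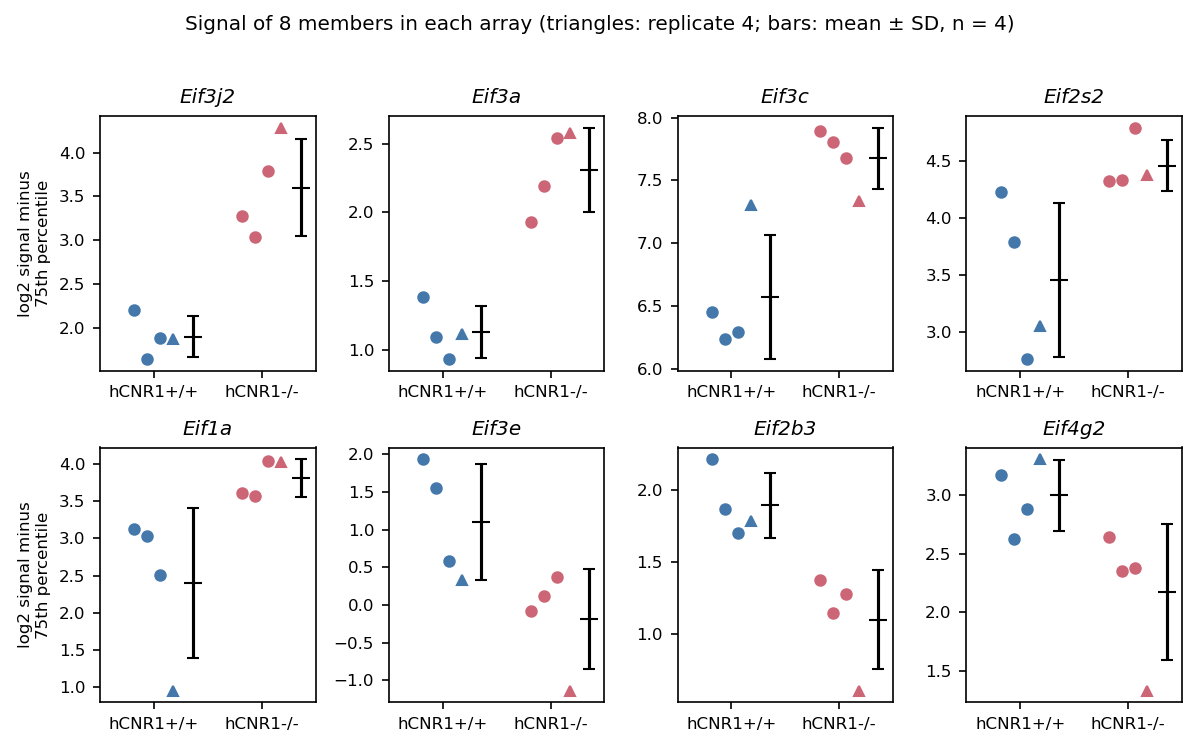
Level of 8 initiation factor genes in each array (y axis, log2 signal minus the 75th percentile of the array, own scale in each panel), with hCNR1+/+ in blue, hCNR1-/- in red, replicate 4 as triangles and bars for mean ± SD (n = 4). In Eif3j2, Eif3a, Eif3c, Eif2s2 and Eif1a all hCNR1-/- points lie above all hCNR1+/+ points, and in Eif2b3 all lie below.

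In the eIF2 complex, which carries the initiator tRNA, and its stand-ins eIF2A and eIF2D, 4 of 5 genes lay above 0 and none passed the adjusted test (median 0.34). Eif2s2, the beta subunit, had levels of 4.23, 3.79, 2.76 and 3.05 in hCNR1+/+ and 4.33, 4.34, 4.80 and 4.38 in hCNR1-/- arrays. The hCNR1-/- arrays were close together and all above the hCNR1+/+ arrays, which were widely spread. The difference was 1.00 (standard error 0.33, adjusted p = 0.117, limma), and the other probe gave 1.34 with an adjusted p of 0.0184 over probes. Eif2s1, the alpha subunit that stress kinases phosphorylate, read 3.34, 3.20, 2.87 and 2.43 in hCNR1+/+ and 3.29, 3.21, 3.64 and 3.07 in hCNR1-/- arrays, with overlap and a difference of 0.34 (standard error 0.25, adjusted p = 0.465). Eif2a, which codes for a separate factor and not for the alpha subunit, was the lowest of the 5 fold changes at -0.53 (adjusted p = 0.286).

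eIF2B, the exchange factor that reloads eIF2 with GTP, was split. Eif2b2 (beta subunit) and Eif2b4 (delta) lay higher without overlap and Eif2b3 (gamma) lower without overlap, but none passed the adjusted test. Eif2b2 had levels of 5.91, 6.43, 6.20 and 6.41 in hCNR1+/+ and 7.07, 7.16, 6.86 and 6.92 in hCNR1-/- arrays, a difference of 0.76 (standard error 0.20, adjusted p = 0.0648, limma). Eif2b4 differed by 0.49 (adjusted p = 0.183). Eif2b3 read 2.21, 1.86, 1.70 and 1.79 in hCNR1+/+ and 1.37, 1.14, 1.27 and 0.60 in hCNR1-/- arrays, so that all hCNR1-/- arrays were lower. Its difference was -0.79 (standard error 0.23, adjusted p = 0.0891, limma), -0.80 on the other probe, and it fell at adjusted p = 0.0491 when hCNR1-/- replicate 4 was left out. Eif2b5, the catalytic epsilon subunit, read 3.51 to 3.99 in hCNR1+/+ and 2.95 to 3.80 in hCNR1-/- arrays, with a difference of -0.24 (adjusted p = 0.595).

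Of the genes for start codon recognition, Eif1a, a gene of the scanning factor eIF1A, showed the widest difference and the widest spread. Its levels were 3.12, 3.03, 2.50 and 0.95 in hCNR1+/+ and 3.60, 3.58, 4.04 and 4.02 in hCNR1-/- arrays. Every hCNR1-/- array was higher, and the low hCNR1+/+ replicate 4 widened the gap between the means. The difference was 1.41 (standard error 0.44, adjusted p = 0.106, limma), and 0.92 without that array. Its relative Eif1ax, an X-linked eIF1A gene, differed by -0.25 (adjusted p = 0.616) and Eif1, the factor that guards against wrong start codons, by 0.35 (standard error 0.30, adjusted p = 0.526). Eif1 read 8.42 to 8.73 in hCNR1+/+ and 9.06, 9.32, 9.18 and 7.99 in hCNR1-/- arrays, so replicate 4 alone was low, and without it the difference of 0.65 passed at adjusted p = 0.0316.

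None of the 4 tested genes for cap binding and the eIF4E carrier, nor any of the 3 scaffold genes, passed the adjusted test, and their medians were 0.31 and -0.42. Eif4e, the cap-binding protein, read 2.10 to 2.71 in hCNR1+/+ and 1.80 to 2.77 in hCNR1-/- arrays, with a difference of -0.02 (95% interval -0.60 to 0.56, adjusted p = 0.973, limma) and -0.68 on its other probe, the widest gap between probes of a member. A difference within that interval was not detectable with these arrays. Among the scaffolds, Eif4g1 had levels of 6.67, 6.39, 6.50 and 6.89 in hCNR1+/+ and 7.44, 7.20, 7.23 and 7.17 in hCNR1-/- arrays, all of them higher. The difference was 0.65 (standard error 0.19, adjusted p = 0.0928, limma), and it passed at 0.0389 without hCNR1-/- replicate 4. Eif4g2, a scaffold that lacks the eIF4E-binding site and acts in cap-independent initiation, lay the other way at -0.82 (adjusted p = 0.163), with -0.54 without that array.

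All 5 genes of the eIF4A helicases and their cofactors were above 0, with a median of 0.37 and none past the adjusted test. Eif4a2 differed by 0.82 without overlap (standard error 0.29, adjusted p = 0.145, limma), from 4.62 to 5.63 in hCNR1+/+ and from 5.80 to 6.42 in hCNR1-/- arrays. Eif4a1, the main helicase, read 6.83 to 7.14 in hCNR1+/+ and 7.42, 7.41, 7.53 and 5.87 in hCNR1-/- arrays. Replicates 1 to 3 of hCNR1-/- were above all hCNR1+/+ arrays and replicate 4 was below all of them, which left a difference of 0.07 (standard error 0.36, adjusted p = 0.925, limma). Its direction was below 0 under quantile scaling (-0.19), with the percentile taken over bright probes (-0.084) and without scaling (-0.48), and it was 0.47 without hCNR1-/- replicate 4. Eif4b, which stimulates the helicase, showed the same shape, with 0.63 over all arrays (adjusted p = 0.315) and 0.98 without that array (adjusted p = 0.0148).

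In the last steps, Eif5, which triggers GTP hydrolysis on eIF2, differed by 0.58 (standard error 0.25, adjusted p = 0.220, limma), from 4.24 to 4.81 in hCNR1+/+ and from 4.78 to 5.69 in hCNR1-/- arrays. Eif6, which keeps the large subunit from joining early, read 7.99, 8.14, 7.90 and 8.06 in hCNR1+/+ and 8.73, 8.79, 8.10 and 8.92 in hCNR1-/- arrays. Replicate 3 of hCNR1-/- alone fell within the hCNR1+/+ range, and the difference was 0.61 (standard error 0.22, adjusted p = 0.156, limma). Both genes of eIF5A, the hypusine-bearing factor that also relieves stalled elongation, were higher without overlap. Eif5a differed by 0.47 (standard error 0.22, adjusted p = 0.252), from 5.95 to 6.32 in hCNR1+/+ and from 6.35 to 7.07 in hCNR1-/- arrays, and Eif5a2 by 0.71 (standard error 0.22, adjusted p = 0.0971), from 0.15 to 0.54 and from 0.67 to 1.34.

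**Figure D4:**
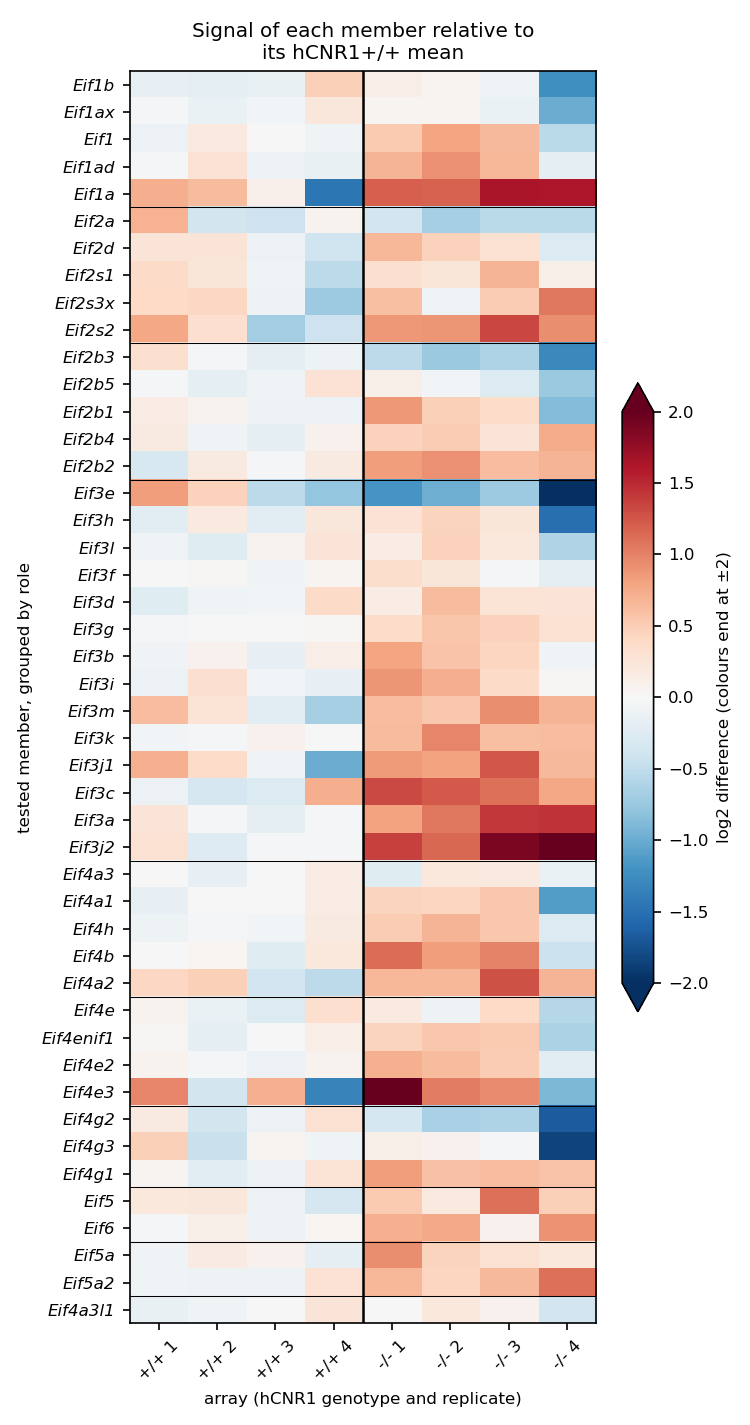
Level of each of the 46 tested initiation factor genes (rows, grouped by role) in each array (columns) as the log2 difference from the hCNR1+/+ mean of that gene, red above and blue below. Replicates 1 to 3 of hCNR1-/- are mostly red, with 41, 39 and 37 of 46 genes above the hCNR1+/+ mean, and replicate 4 is mixed, with 21 of 46.

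The members were not even across the hCNR1-/- mice. Relative to the hCNR1+/+ mean, the median member stood at 0.56, 0.52 and 0.49 in hCNR1-/- replicates 1 to 3 and at -0.16 in replicate 4, where the median over all tested genes was 0.18, 0.23, 0.13 and -0.18. Replicate 4 was the lowest hCNR1-/- array in 30 of 46 members, yet the highest in 6, among them Eif3j2 and Eif3a. It lay above all hCNR1+/+ arrays in 17 members and below all of them in 21, against 31 to 32 above and 3 to 4 below in the other hCNR1-/- arrays. It was also the dimmest array, and the part of its low signal in these values was not tested.

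Without this array the difference was broader, among the members as among all genes. The log2 fold change was above 0 in 40 of 46 members (87.0%, against 64.6% of all genes), with a median of 0.54, against 0.17. At the adjusted threshold 12 members were higher (26.1%, against 10.1%), namely Eif3j2, Eif3c, Eif3a, Eif4b, Eif2b2, Eif1ad, Eif3k, Eif4g1, Eif1, Eif4e2, Eif3b and Eif4h, and Eif2b3 was lower (2.17%, against 2.92%). In 26 members (56.5%, against 24.3%) all 3 remaining hCNR1-/- arrays lay above all hCNR1+/+ arrays, and in 1 member below (2.17%, against 6.93%). Weighting all 8 arrays by limma's estimates gave this array the lowest weight at 0.0994, hCNR1+/+ replicate 4 the next at 0.396 and hCNR1+/+ replicate 3 the highest at 3.24. With these weights 23 of 46 members were higher (against 19.7% of all genes) and 1 was lower (2.17%, against 5.83%).

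**Figure D5:**
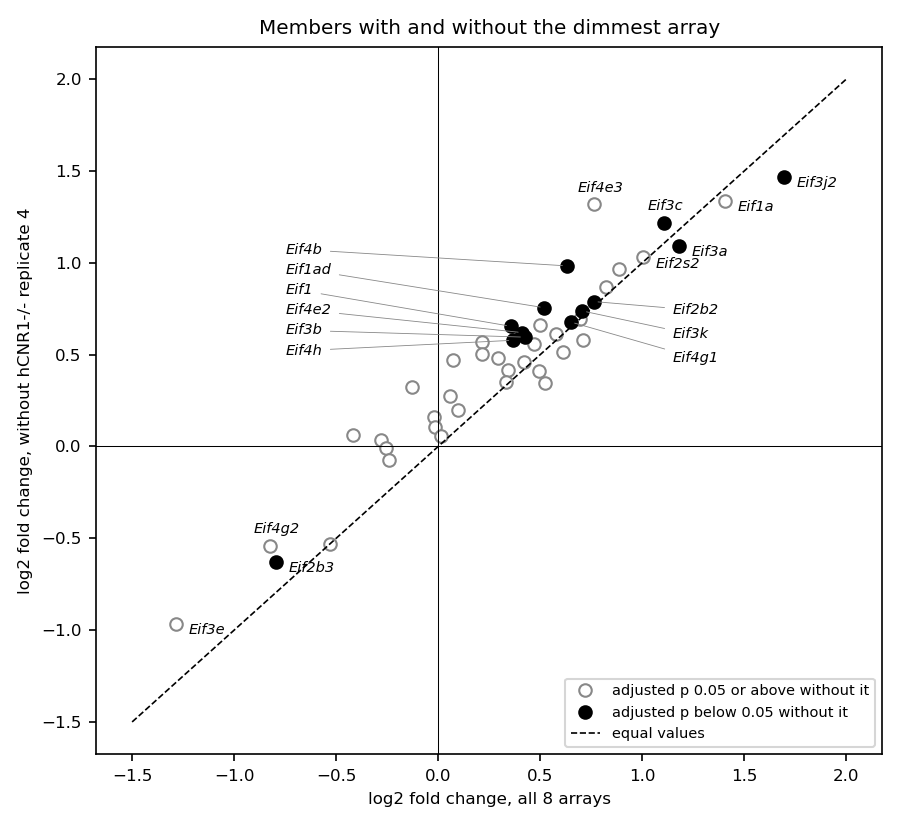
Log2 fold change of each tested member over all 8 arrays (x axis) and without hCNR1-/- replicate 4 (y axis), with filled points for the 13 genes at an adjusted p below 0.05 without that array and a dashed line of equal values. Of the 46 points 39 lie above the line, and Eif3j2 and Eif3a lie below it.

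Of the members not described above, Eif4e3, a relative of the cap-binding protein, cleared the background in 2 hCNR1+/+ arrays and in 3 hCNR1-/- arrays, with a difference of 0.76 (95% interval -0.71 to 2.24). Eif1b, Eif1ad, Eif2d, Eif2s3x, Eif2b1, Eif4a3, Eif4a3l1, Eif4h, Eif4e2, Eif4enif1 and Eif4g3 ranged from -0.42 to 0.52, and none passed the adjusted test over all arrays. Eif4a3l1 is a near-identical copy of Eif4a3, a helicase of the exon junction complex, and shared signal between them is uncertain.

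More than 1 probe was tested for 17 members, and in all 17 the probes shared a direction. Their fold changes differed by 0.0036 to 0.65 in log2, with a median of 0.16.

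Regulators and partners of the initiation factors outside the rule were taken from a list of 40 genes, all on the array and 39 tested. The list was chosen with earlier results of these data known, so its shares are a description only. Of these 24 were above 0 (61.5%, against 56.6% of all tested genes), with a median of 0.09. At the adjusted threshold 4 were higher (10.3%, against 2.94%) and 2 were lower (5.13%, against 1.3%). The same genes passed the 2-fold threshold, which 4.78% of all genes passed on the higher side and 3.75% on the lower side. Ddx3x, an RNA helicase that helps ribosomes through structured leaders, had levels of 2.97, 3.05, 2.07 and 1.24 in hCNR1+/+ and 4.60, 4.65, 5.10 and 4.65 in hCNR1-/- arrays, with no overlap. It rose by 2.42 (standard error 0.39, adjusted p = 0.0175, limma), though its other probe gave 1.02. Pabpc4, a poly(A) binding protein, rose by 1.35 (adjusted p = 0.0257, limma), from 4.53 to 4.63 in hCNR1+/+ and from 5.52 to 6.59 in hCNR1-/- arrays.

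Bzw1, an eIF5 mimic, and Paip1, a partner of the poly(A) binding protein, rose by 1.27 and 1.14 on their brightest probes but stood at -0.0026 and 0.03 on their other probes. The elongation factor kinase Eef2k fell by 1.17 and the mitochondrial initiation factor Mtif2 fell by 1.09, both without overlap. Eef2k was dim, at -1.68 to -1.04 in hCNR1-/- arrays, of which 3 were well above background. On its next brightest probe Eef2k kept this direction but did not pass the adjusted test. Leaving out 1 array also ended many of these calls. Except without hCNR1-/- replicate 4, calls over all genes then fell from 325 to at most 143 higher and from 144 to at most 85 lower. Ddx3x lost its call without hCNR1+/+ replicate 3 (adjusted p = 0.0674, limma), hCNR1-/- replicate 1 (0.0529) or hCNR1-/- replicate 3 (0.0649). Pabpc4 kept it only without hCNR1-/- replicate 2 (0.0423) or replicate 4 (0.00787). Of the 8 omissions, the other 4 genes kept theirs only without hCNR1-/- replicate 4, with adjusted p = 0.0384 for Bzw1, 0.0370 for Paip1, 0.0201 for Eef2k and 0.0128 for Mtif2. Of the eIF2 kinases 3 of 4 were tested and of the 4E-BPs all 3, and none passed the adjusted test. Eif4ebp1, which holds eIF4E back, differed by 0.59 without overlap (adjusted p = 0.139, limma), from 8.32 to 9.07 in hCNR1+/+ and from 9.30 to 9.33 in hCNR1-/- arrays.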

How the data were processed

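Cy3-labelled cRNA made from 200 ng of total hepatocyte RNA per mouse was hybridised to 1-colour Agilent arrays, and the authors deposited the spot intensity from Feature Extraction version 12.0.3.1, corrected for background within the array and not scaled between arrays. The deposited score per spot matched the log intensity standardised within its array to 0.005 and was used only as an alternative. The test behind the study's own gene counts is not given in the sources used here.

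Intensities were taken to log2, and each array's 75th percentile over 59305 non-control spots was subtracted. Outlier spots were left out and spots of a probe averaged. Accessions, without versions, named 28331 of 55681 probes from RefSeq (GRCm38.p6). The array headers name the build mm9, so gene coordinates are printed only for the promoter windows. A gene was represented by its brightest probe among probes that passed the software's background flag on 4 or more of the 8 arrays and tested with limma version 3.58.1 (lmFit and eBayes, two-sided, R version 4.3.3), and p-values were adjusted by Benjamini-Hochberg over all 11072 genes. Single members also had an exact permutation test over 70 assignments. The fit was tested on simulated data. A legend of the study gives fewer mice per genotype than arrays were deposited and does not name them, so all 8 arrays were used. Replicate numbers, which are also the slide columns, were not used to pair the arrays in the main fit. Deviations of same-numbered arrays correlated at -0.16 to 0.21. Precision is limited by the number of arrays, and p-values measure the spread between mice on 1 slide.

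The members and gene lists were chosen with earlier results of these data known. Members with an adjusted p below 0.05 or a fold change above 2 with p below 0.05, and Eif1, Eif2s1, Eif2b5, Eif3a, Eif4a1, Eif4e, Eif4g1, Eif5, Eif5a and Eif6, were named by rule, as were listed partners past either threshold. Other members were named after their values were seen. Lists of liver cell markers served as checks. Other scalings, background correction, filters, probe rules, array weights, a replicate block and each array left out in turn were the alternatives.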

Additional observations from a re-analysis of the deposited data

Results flagged for a closer look

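In 11 of 104 sets of 4 arrays, 1 array stood apart from the other 3 by Dixon's test at the 95% level. Chance gives about 1 in 20 per set, but the sets come from the same 8 arrays and are not independent. Replicate 4 of hCNR1-/-, the dimmest array, was the low one in 5 of the 11. There Eif1b stood at 3.92 (others 5.06 to 5.29), Eif3h at 5.55 (others 7.30 to 7.49), Eif4a1 at 5.87 (others 7.41 to 7.53), Eif4enif1 at 1.40 (others 2.49 to 2.58) and Eif4g3 at 1.12 (lowest of the others 2.96). In hCNR1+/+ replicate 4, Eif1b was high at 5.62 (lowest of the others 4.98) and Eif5a2 at 0.54 (others 0.15 to 0.16). In hCNR1-/- replicate 3, Eif2s2 was high at 4.80 (others 4.33 to 4.38), Eif4a2 at 6.42 (others 5.80 to 5.82) and the helicase gene Ddx3x at 5.10 (others 4.60 to 4.65). In hCNR1-/- replicate 2, Eif3k was high at 8.10 (others 7.73 to 7.77).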

How the results depend on the processing

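The count of 2 members higher at the adjusted threshold was 1 with quantile normalization, with the percentile over bright probes and with normexp background correction, 0 with the median subtracted, with the deposited z-scores, without scaling, without a filter on dim probes and with the replicate block, and 4 where every array had to pass the background filter. Over all genes the main count was 325, and in the same order 131, 101, 28, 25, 30, 1, 8 of 21360, 0, and 341 of 8371. With array weights the member count was 23 (all genes 2176). There 1 member was lower in place of 0 (all genes 646 in place of 144). Without both scaling and hCNR1-/- replicate 4 the higher count was 0 (all genes 4), and with quantile normalization without that array 3 (all genes 419). With 1 array left out it ran from 0 to 12 (all genes 13 to 1121), and the lower count from 0 to 1 (all genes 25 to 323). The cause of these changes was not tested. The filters also changed the number of genes tested, and each omission left fewer arrays. At 2-fold, the 5 higher members were 3 with quantile normalization, bright probes and normexp, 0 without scaling, 2 without hCNR1-/- replicate 4 under no scaling or quantile normalization, and 3 to 6 with 1 array left out. Over all genes 529 were higher, and in the same order 449, 358, 145, 87, 316, 457 and 464 to 616. The 1 lower member was lost (0) with the median, normexp, the filter on every array, array weights, and no scaling without replicate 4, and 0 to 1 remained with 1 array left out. Over all genes 415 were lower, and in the same order 326, 107, 145 of 8371, 313, 429 and 329 to 478.

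The median of the members, 0.42, was -0.14 without scaling, 0.22 with quantile normalization, 0.26 with bright probes, 0.28 with normexp and 0.33 to 0.54 with 1 array left out. Without scaling, Eif1 (-0.20), Eif2b4 (-0.061), Eif2s1 (-0.21), Eif3g (-0.13), Eif4a1 (-0.48) and Eif5a (-0.086) turned below 0. Eif4a1 was also below 0 with quantile normalization (-0.19), bright probes (-0.084), z-scores (-0.0086) and normexp (-0.015), and it ran from -0.081 to 0.47 with 1 array left out, below 0 without hCNR1-/- replicate 1, 2 or 3. Eif4e was above 0 with array weights (0.28) and ran from -0.16 to 0.16 with 1 array left out, above 0 without hCNR1+/+ replicate 4 or hCNR1-/- replicate 2 or 4. Bzw1 stood at -0.0026 on its other probe. The replicate block, over numbers that are also the slide columns, left 0 calls at the adjusted threshold and 5 higher members at 2-fold (0 and 538 over all genes). The 2 alternatives without hCNR1-/- replicate 4 under another scaling were chosen after seeing the data.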
